A study of Mus musculus with 6 samples.

Results

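The 9 genes described here encode chemokines that draw monocytes, T cells and eosinophils into tissue, together with a pair of the receptors that read such signals. They were taken by symbol, 7 ligands of the CC family (Ccl2, Ccl5, Ccl6, Ccl7, Ccl8, Ccl9 and Ccl11) and the receptors Ccr2 and Cx3cr1, and all 9 are among the 14016 genes of the deposited table. RNA came from injured quadriceps muscle of mice 7 days after volumetric muscle loss, a surgical removal of muscle, with no implant placed in the defect. There were 3 WT mice and 3 mice with the genotype GATA-1 mutant, the ΔdblGATA line, which carries a deletion in a regulatory site of the transcription factor gene Gata1 and lacks eosinophils in every tissue rather than in muscle alone. Both genotypes shared the injury, the day and the absence of an implant, and the labels give no age.

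For each gene the level used here is the authors' mean of log2 CPM, read counts scaled to the size of the library, over the 6 libraries of both genotypes. The other columns of the table hold the authors' comparison of the genotypes and were not used. Values per mouse were not analysed here, so the depth of each library is unknown, no SD can be set beside a level, and no value below says how WT and GATA-1 mutant muscle differed. Because the muscle was sequenced in bulk, fewer cells of a type and less RNA per cell cannot be told apart in any level. Muscle markers stood at the top of the table as the label of the tissue would have it, 6 of 6 listed, and even the lowest of them, the myoglobin gene Mb, was above 99.7% of genes. All 7 monocyte and macrophage markers were listed, and 4 of 6 for T cells. Of 8 eosinophil markers only Ear2, which has close paralogues, was listed, at a mean of 0.13 log2 CPM, while Siglecf, Epx, Prg2, Ear1, Ear6, Il5ra and Ccr3 were not.

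Chemokines are small secreted proteins that bind to receptors with 7 membrane spans on leukocytes and direct their movement along a gradient. The CC family is named for a pair of adjacent cysteines near the start of the mature protein, and in the CX3C family other residues stand between them. In injured muscle, Ccr2 and its ligands are known for bringing inflammatory monocytes from the blood, and Cx3cr1 marks monocytes and macrophages that bind the membrane-anchored ligand fractalkine, encoded by Cx3cl1. Ccl11, or eotaxin, is the classical attractant of eosinophils through Ccr3, and Ccl5 attracts T cells and eosinophils through receptors that include Ccr1 and Ccr3.

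The feature that puts the 7 ligands in 1 family can be read in their genes. The coding bases around the paired cysteines are shown from GENCODE M21 transcripts (build GRCm38), 5′ to 3′ on the strand of each gene, with both cysteine codons in capitals.
Ccl2 (chr11:82036488-82036547, plus strand, exon 2): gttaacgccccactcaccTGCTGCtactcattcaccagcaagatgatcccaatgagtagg
Ccl7 (chr11:82046520-82046579, plus strand, exon 2): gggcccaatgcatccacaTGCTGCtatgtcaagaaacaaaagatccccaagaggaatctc
Ccl11 (chr11:82061679-82061737, plus strand, exon 2): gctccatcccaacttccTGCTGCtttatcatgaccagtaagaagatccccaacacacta
Ccl8 (chr11:82116039-82116097, plus strand, exon 2): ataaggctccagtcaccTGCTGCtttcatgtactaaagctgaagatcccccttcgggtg
Ccl5 (chr11:83529206-83529265, minus strand, exon 2): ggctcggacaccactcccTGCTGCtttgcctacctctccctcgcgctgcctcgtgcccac
Ccl9 (chr11:83575890-83575949, minus strand, exon 3): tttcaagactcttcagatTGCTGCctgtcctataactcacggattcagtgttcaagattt
Ccl6 (chr11:83589350-83589409, minus strand, exon 3): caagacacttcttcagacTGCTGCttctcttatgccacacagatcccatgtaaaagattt
All 7 use the same codon for both cysteines. The windows of Ccl11 and Ccl8 start within a codon, since an exon begins there. In Ccl2, Ccl5, Ccl7, Ccl8 and Ccl11 the pair begins between residues 32 and 34 of the precursor protein and lies in exon 2 of 3. In Ccl6 and Ccl9 it begins at residues 50 and 57 and lies in exon 3 of 4, so these 2 precursors carry a longer stretch before the cysteines.

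The ligand genes lie in 2 groups on chromosome 11 of GRCm38. Ccl2 (82035571 to 82037453), Ccl7 (82045712 to 82047525), Ccl11 (82057823 to 82062955) and Ccl8 (82115185 to 82116799) follow each other on the plus strand, with only Ccl12 among protein-coding genes between them. Ccl5 (83525778 to 83530518), Ccl9 (83572919 to 83578636) and Ccl6 (83587882 to 83593087) lie 1409 kb farther on, on the minus strand, with no protein-coding gene between them. The receptor genes are both on chromosome 9, Cx3cr1 at 119901616 to 120069879 on the minus strand and Ccr2 at 124101950 to 124113557 on the plus strand, with 61 protein-coding genes starting between them.

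Ccl6, a myeloid chemokine also known as C10, had the highest level of the 9 genes, and Ccl5 the lowest. Since a long transcript gives more reads than a short one at the same number of molecules, levels of different genes are compared after division by the length of the longest coding transcript, as log2 CPM per kb. On that scale Ccl6 stood at 4.51 and Ccl5 at 1.07, a difference in level of 3.44, or 10.9-fold. The median of the 9 genes was 1.82 log2 CPM per kb, against 2.26 for the 13944 genes of the table with a known length. On this scale the 4 ligands Ccl6, Ccl8, Ccl9 and Ccl11 were above that median, and the other 3 ligands and both receptors were below it. Without division by length, Ccl6, Ccl9 and Ccr2 were above the median of all genes, 4.03 log2 CPM, and Ccl8 and Ccl11 were below it. The level of Ccr2 also depended on the transcript chosen, with 3.16 log2 CPM per kb for its shortest coding transcript. If the 7 ligands are added at their mean levels per kb, Ccl6 alone made up 34.8% of the sum and the 4 highest ligands 87.8%.

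**Figure D1:**
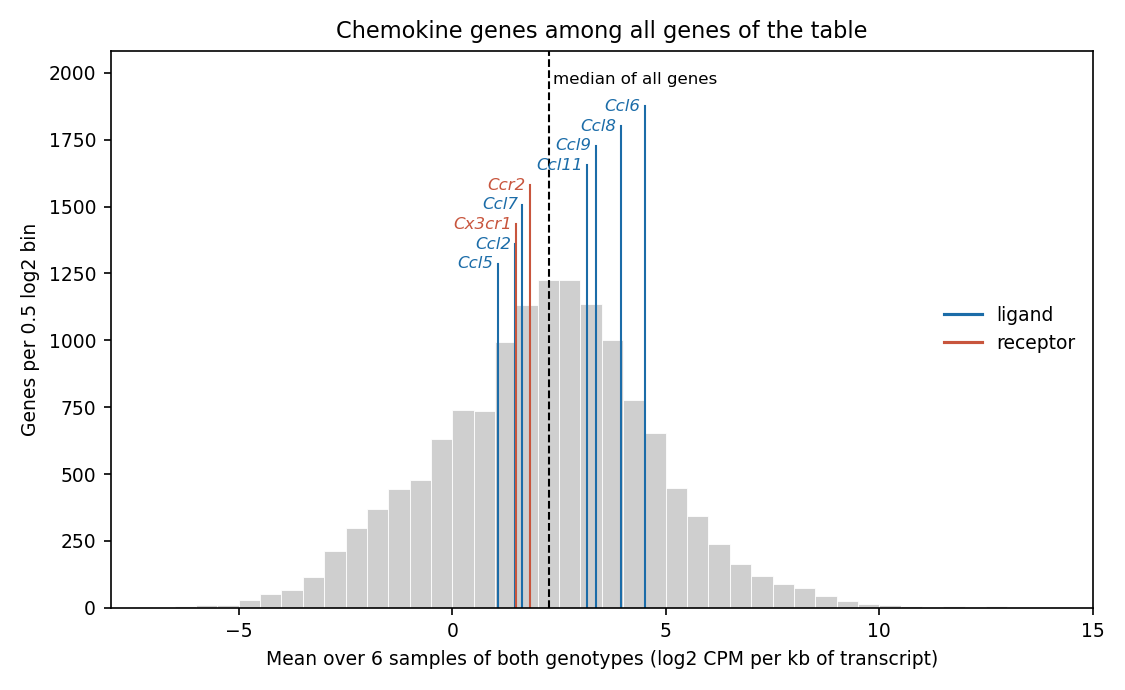
Histogram of the mean level of 13944 genes in log2 CPM per kb of the longest coding transcript (x axis) against genes per 0.5 log2 bin (y axis), with a blue line for each of the 7 ligands and a red line for each of the 2 receptors, whose heights only separate the names. Ccl6, Ccl8, Ccl9 and Ccl11 lie to the right of the dashed median of 2.26, and the other 5 genes to its left.

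Among the ligands of Ccr2, the chief monocyte attractants Ccl2 and Ccl7 were low and close to each other. Ccl2, also known as MCP-1, had a mean of 1.18 log2 CPM, or 2.26 CPM as a geometric mean, above 16.3% of all genes. Ccl7, or MCP-3, had a mean of 1.32 log2 CPM, above 17.4% of genes. Per kb they stood at 1.48 and 1.64, so the levels of these neighbouring genes, 8.26 kb apart, differed by 0.16 on the log2 scale. Ccl12, the other mouse ligand of Ccr2 in this group and the gene between Ccl11 and Ccl8, was listed at 0.95 log2 CPM per kb. All 3 ligands of Ccr2 were thus below Ccr2 itself on that scale, which stood at 1.82 with the longest of its coding transcripts.

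Ccl8, known as MCP-2, acts in mice mainly through the receptor Ccr8. Its mean was 2.98 log2 CPM, and as its transcript is only 511 nt long its level per kb was 3.95, the second of the 9 genes. That is 5.54-fold the level of Ccl2 and 4.95-fold that of Ccl7 per kb, although all 3 genes are in the same group on chromosome 11. Ccr8 was not listed. Ccl11 had a mean of 3.27 log2 CPM and 3.16 per kb, which was 3.22-fold the level of Ccl2. Its receptor gene Ccr3, which is also an eosinophil marker, was not listed either. For both ligands, then, the table gives a level for the signal and none for its main receptor.

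Ccl6 and Ccl9, chemokines of macrophages and other myeloid cells that act through Ccr1, had the highest means before division by length. Ccl6 had a mean of 5.03 log2 CPM, or 32.8 CPM as a geometric mean, above 69.3% of genes. Ccl9, also known as MIP-1γ, had a mean of 4.94 log2 CPM, above 67.5% of genes. Their transcripts differ in length, 1440 nt for Ccl6 and 3006 nt for Ccl9, so that per kb Ccl9 stood at 3.36 and Ccl6 was 2.22-fold higher. Ccr1 was listed at 1.44 log2 CPM, above Ccl7 at 1.32, Ccl2 at 1.18 and Ccl5 at 0.16. Per kb it stood at -0.07, under each of the 9 genes. Ccl5, or RANTES, had the lowest mean, 0.16 log2 CPM or 1.11 CPM as a geometric mean, and only 9.48% of genes had a lower one. To be listed, a gene had to pass 1 CPM in 3 or more samples, so the mean of Ccl5 lay close to that limit. Of the receptors that bind Ccl5, Ccr1 is given above and Ccr3 was not listed.

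**Figure D2:**
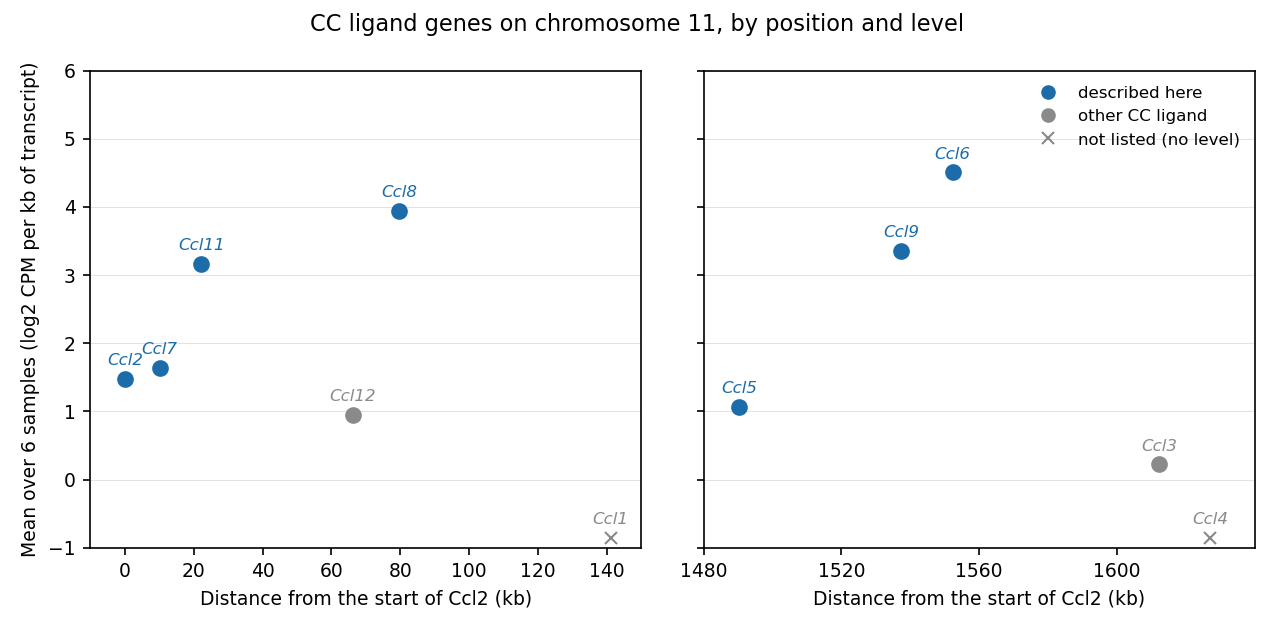
Level of the CC ligand genes on chromosome 11 in log2 CPM per kb of the longest coding transcript (y axis) against distance from the start of Ccl2 in kb (x axis, with a break between the panels), as blue points for the 7 ligands described and grey points for others. Some neighbours differ in level: Ccl12 at 0.95 stands between Ccl11 at 3.16 and Ccl8 at 3.95, and Ccl5 at 1.07 stands beside Ccl9 at 3.36. Ccl2 at 1.48 and Ccl7 at 1.64 are close, and crosses mark Ccl1 and Ccl4, which have no level.

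The 2 groups on chromosome 11 were not separated by level. The group from Ccl2 to Ccl8 ran from 1.48 to 3.95 log2 CPM per kb in the genes described here, and the group from Ccl5 to Ccl6 from 1.07 to 4.51, so that the ranges overlapped. Without division by length some neighbours were close in log2 CPM: Ccl2 (1.18) and Ccl7 (1.32), and Ccl9 (4.94) and Ccl6 (5.03). Others were not, as Ccl12 (0.06) lay between Ccl11 (3.27) and Ccl8 (2.98), and Ccl5 (0.16) beside Ccl9. Whether the exon structure separated the levels of the ligands depended on the scale. Per kb of the longest coding transcript the 2 ligands with 4 exons, Ccl9 and Ccl6, stood at 3.36 and 4.51, within and above the range of 1.07 to 3.95 of the 5 ligands with 3 exons. Without division by length they stood at 4.94 and 5.03 log2 CPM, above the range of 0.16 to 3.27 of the other 5, and per kb of coding sequence at 6.39 and 6.56, with Ccl11 the highest of the others at 5.06.

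Ccr2, the receptor that lets monocytes leave the bone marrow and enter injured tissue, had a mean of 4.34 log2 CPM, above 56.1% of genes. Cx3cr1, the fractalkine receptor, had a mean of 3.66 log2 CPM, above 43.3% of genes. Per kb of the longest coding transcript the levels were 1.82 for Ccr2 and 1.49 for Cx3cr1, a difference in level of 0.33. Ccr2 has 4 annotated coding transcripts of 2265 to 5728 nt, and with the shortest its level per kb was 3.16 instead of 1.82. For Cx3cr1, with 3 coding transcripts of 3156 to 4493 nt, it was 2.00 with the shortest instead of 1.49. That shortest transcript is spliced from a span of 167 kb, and with the transcript of 3753 nt the level was 1.75. Which transcripts were present was not tested. Cx3cl1 was listed at 1.15 log2 CPM per kb, below its receptor.

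**Figure D3:**
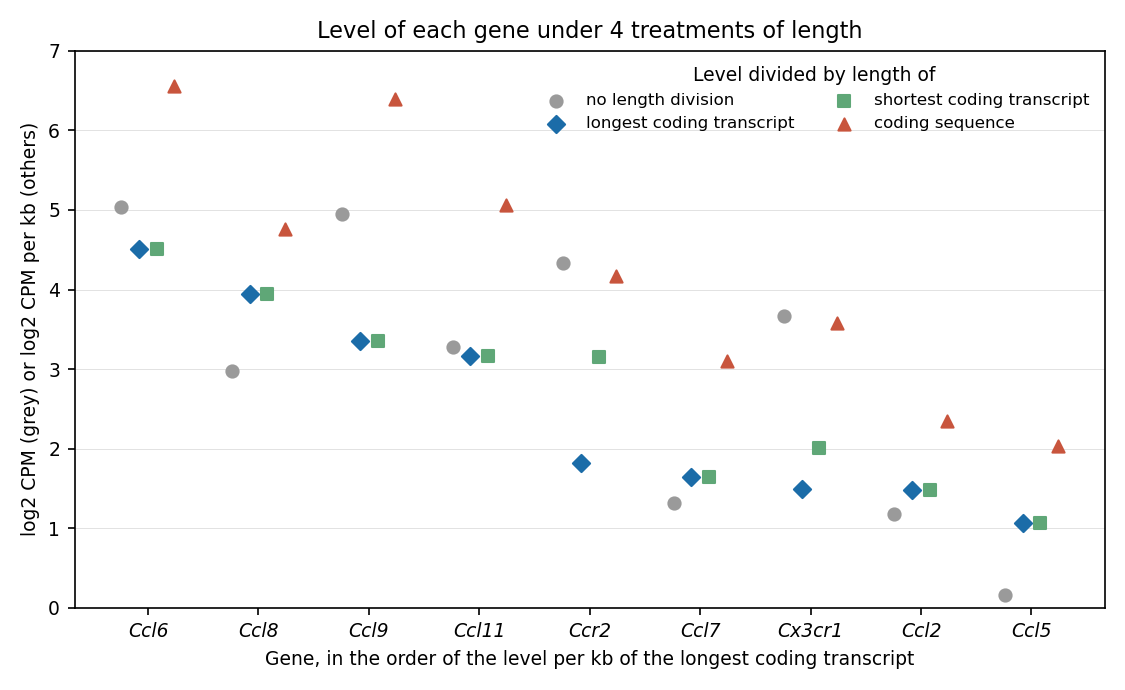
Level of each of the 9 genes (x axis) as log2 CPM (grey) or as log2 CPM per kb (y axis) of the longest coding transcript (blue), the shortest coding transcript (green) or the coding sequence (red). Ccl6 is highest and Ccl5 lowest under all 4, whereas Ccl8 is second per kb of transcript and sixth without division, and Ccr2 moves from 1.82 to 3.16 with its shortest transcript.

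The order of levels per kb was Ccl6, Ccl8, Ccl9, Ccl11, Ccr2, Ccl7, Cx3cr1, Ccl2 and Ccl5. The largest step between neighbours in that order was 1.34, from Ccl11 to Ccr2, and the smallest was 0.02, from Cx3cr1 to Ccl2. Without values per mouse no step could be set against the spread between mice. With the shortest coding transcripts 7 of the 9 genes kept their place, as Ccl7 and Cx3cr1 changed places, and the step from Ccl11 to Ccr2 closed to levels of 3.16 for both.

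The other genes of these families had lower medians. Of 13 other CC ligands 8 were listed, with a median of 0.61 log2 CPM per kb against 3.16 for the 7 ligands described. The highest were Ccl27a at 3.64 and Ccl21a at 3.60, ligands known from skin and from lymphatic vessels and lymph nodes, and per kb both were above Ccl11 and Ccl9. Without division by length, Ccl27a at 3.39 and Ccl21a at 3.40 log2 CPM were above Ccl11 at 3.27 but below Ccl9 at 4.94. The values of Ccl27a and Ccl21a are uncertain, since 79.8% and 80.6% of their 31-base words also occur in other genes. Per kb the remaining 6 listed ligands were Ccl25 at 1.58, Ccl12 at 0.95, Ccl24 at 0.26, Ccl3 at 0.23, Ccl22 at -1.71 and Ccl28 at -2.25. Ccl1, Ccl4, Ccl17, Ccl19 and Ccl20 were not listed. Ccl24, another eotaxin, was thus below Ccl11 on this scale.
Of the 9 other genes for receptors and the CX3C ligand described here, 4 were listed, from Cx3cl1 at 1.15 down to Ccr7 at -1.49 and Ccr9 at -2.45 log2 CPM per kb, and each was below both Ccr2 and Cx3cr1. Ccr3, Ccr4, Ccr6, Ccr8 and Ccr10 were not listed. Decoy receptors bind chemokines without the usual signal. Among 4 genes of decoy receptors and a related protein, Ackr1 was listed at 1.04 and the related gene Ccrl2 at 0.22, and Ackr2 and Ackr4 were not listed.

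Levels of markers for leukocytes, fibroblasts and endothelium are given for scale. The 7 monocyte and macrophage markers ran from 1.16 log2 CPM per kb for Ly6c2 to 4.75 for Cd68, a range that holds 8 of the 9 genes, all but Ccl5. The listed T cell markers ran from -2.36 for Cd8a to 0.80 for Cd3d, all below Ccl5 at 1.07. Without division by length that order turned for Cd4 at 1.73 and Cd3d at 1.49 log2 CPM, both above Ccl5 at 0.16. The neutrophil genes S100a8 and S100a9 stood at 1.57 and 0.45, with Ly6g and Cxcr2 not listed, and the mast cell genes Mcpt4, Cpa3 and Tpsb2 at 1.64, 0.03 and -2.60. Fibroblast markers ran from 2.95 to 9.10 and endothelial markers from 3.07 to 4.63. Which cells gave the reads of the 9 genes was not tested.

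The ligand proteins resemble each other, while their transcripts hold few stretches of bases in common by which a read could be assigned to the wrong gene. Ccl6 and Ccl9 share 50.0% of residues, the highest of the 21 pairs of ligands, followed by Ccl7 and Ccl8 with 48.5% and Ccl7 and Ccl11 with 46.9%. Ccl2 and Ccl9 share the least, 14.8%. Ccl2 has 148 residues against 91 to 122 in the other ligands, and its end gaps count against it. Yet no word of 31 bases, the usual length by which the authors' program kallisto assigns reads, was shared between any pair of the 9 longest coding transcripts. Ccl2, Ccl5, Ccl7 and Ccl8 had 0 such words in common with any other gene, Ccl11 had 1 of 1052, and Ccl6 had 18 of 1410, all in Slc17a4, which was not listed.

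**Figure D4:**
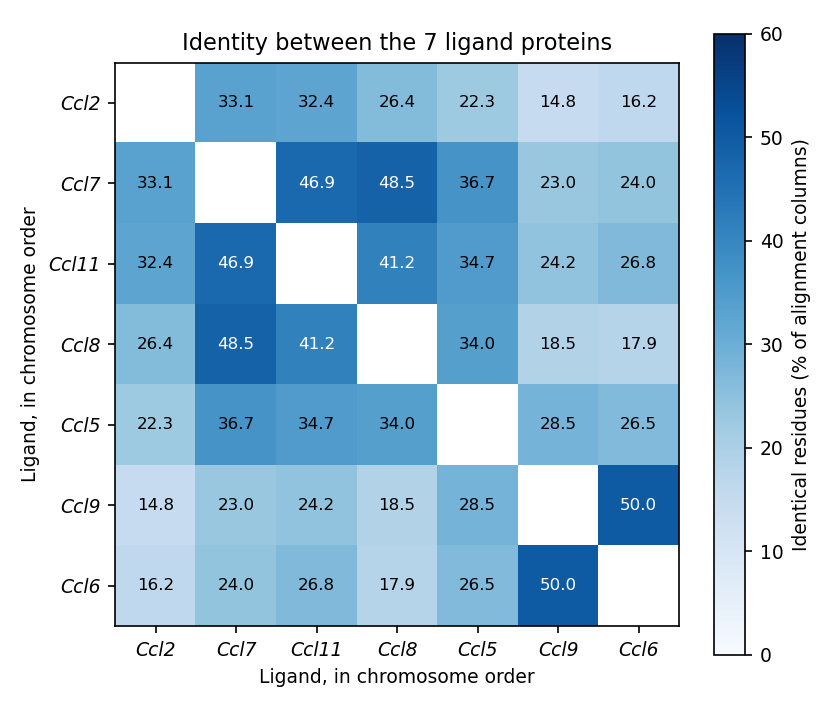
Percent of identical residues between each pair of the 7 ligand proteins, in the order of their genes on chromosome 11 on both axes, with darker blue for higher identity and the diagonal left blank. Ccl7, Ccl11 and Ccl8 share 41.2% to 48.5% of residues with each other and Ccl9 and Ccl6 share 50.0%, while Ccl2 and Ccl9 share 14.8%.

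The levels of Ccl9 and the receptors carry more sharing. Ccl9 had 4.03% of its words in other genes, Ccr2 4.33% and Cx3cr1 3.47%. The shared words of Ccl9 occurred in 1918 other genes, those of Ccr2 in 1108 and those of Cx3cr1 in 521. Each of these levels is uncertain to the extent that reads from such words were split between genes. The Cx3cr1 gene as annotated spans 9 other genes, among them Xirp1, a muscle gene listed at 6.80 log2 CPM, Wdr48, Gorasp1 and Csrnp1. That span comes from 1 coding transcript reaching over 167 kb, whereas the other 2 coding transcripts cover 19.6 and 21.2 kb. Whether exons of the 167 kb transcript overlap exons of other genes was not tested. For the transcript with the most bases, which covers 21.2 kb, only Gm33858 overlaps its exons. Gm33858, an antisense gene that was not listed, holds 49 of the 4463 words of that transcript. Whether the libraries kept the strand is not given in the sources used here, so reads of this antisense gene could not be told apart from those of Cx3cr1.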

How the data were processed

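Bulk RNA sequencing was performed on quadriceps muscle of 3 WT and 3 GATA-1 mutant mice at 7 days post-injury. The authors used kallisto for pseudoalignment of the read pairs and edgeR for CPM per gene, required over 1 CPM in 3 or more samples, took logarithms, applied TMM normalization and fitted limma. The submitters' processing notes name the builds GRCm39 and mm39. From the deposited table the mean log2 CPM over all 6 samples was used. Its 5 columns of the authors' comparison (fold change, t, p-values, log odds) were not used, and 0 other columns hold values per sample. The planned limma fit therefore could not be run, and no p-value is given. In GENCODE M21 (GRCm38) 13458 symbols were found as written and 486 more by an older symbol, so that 99.5% of genes had a length, and 1 row has no symbol. Shared words of 31 bases were counted on both strands against transcripts of all other genes. Coding sequences were translated and aligned globally (BLOSUM62, gap penalties 10 and 0.5, free end gaps, Biopython 1.88), and identity is over all alignment columns. The counting steps were tested on simulated data. All 9 genes and every listed gene of 3 lists (other CC ligands, other receptors with the CX3C ligand, decoy receptors) are named, except for 1 gene that is not reported here. The genes and lists were chosen with earlier results of these data known.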

Additional observations from a re-analysis of the deposited data

How the results depend on the processing

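No paired analysis was possible because the column used holds 1 mean over all samples. For the same reason the comparison of genotypes, with its fits without each mouse, with the replicate number as a block, with a minimum level and with another pseudocount, was not run. Precision is limited by 6 libraries of unknown depth. All 9 genes were found, with or without older symbols.

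The median share of genes below the 9 genes was 37.4% and became 36.4% among protein-coding genes only, 31.5% among genes at a minimum mean of 0 log2 CPM and 26.2% at a minimum of 1, as fewer genes of low level are compared. Of the 9 places in the order of levels per kb, 3 were kept with no length correction, 4 with the coding sequence as length and 7 with the shortest coding transcript. Ccl6 stayed highest and Ccl5 lowest under these 3 alternatives. With words of 21 bases the median share of words found in other genes rose from 0.095% to 2.61%, and Ccl9, Ccr2 and Cx3cr1 had 8.17%, 7.32% and 8.38%.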
